A study of Mus musculus with 6 samples.

Results

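The S100 proteins are small calcium-binding proteins with a pair of EF-hand loops, and most mammalian S100 genes lie side by side in a chromosomal cluster next to genes of the epidermal barrier. Described here are 10 S100 genes of 22180 genes measured in adult mouse kidney: S100a1, S100a4, S100a6, S100a8, S100a9, S100a10, S100a11, S100a13, S100a16 and S100b. They were chosen by name, with earlier results of these data known. The RefSeq annotation places 9 of them on chromosome 3, in the cluster. S100b lies on chromosome 10, so it is a family member outside the cluster and is given apart.

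The series asked which transcripts change when the paired-box transcription factors Pax2 and Pax8 are removed from the adult kidney. RNA from kidney pieces was read on Mouse Gene 2.1 ST microarrays (Affymetrix) for 3 samples labelled Pax28 dKO (replicates 1, 3 and 5) and 3 labelled Control (replicates 2, 4 and 6). The Pax28 dKO mice carried floxed alleles of both genes in homozygous form and the Rosa26CreER allele, whose Cre recombinase is switched on by tamoxifen and is not restricted to the kidney. The controls lacked Cre and received tamoxifen too, so the drug was common to both groups. Tamoxifen (50 mg/kg, by the intraperitoneal route in corn oil) was given on 3 days in a row to animals aged 8 weeks, with a second round at 10 weeks, and tissue was harvested 14 days later. The labels record chow from 3 to 12 weeks of age for both groups. Each group held 2 females and 1 male, the males being knockout 1 and control 4. The labels do not say that each sample is a separate animal, so the p-values measure only the spread between these samples, which may be technical.

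All values are log2 expression values. Median values per array ranged from 3.81 to 3.87, and the correlation of array pairs (Pearson's r across transcript clusters, as a description) from 0.979 to 0.995. Of 12 kidney tubule and glomerulus markers, 11 were measured and all 11 lay above a dim limit of 3.67 log2, the value under which 95% of 1394 olfactory and vomeronasal receptor genes fell. Of those 11 markers 3 passed the test described below as lower on the arrays labelled knockout (Slc34a1, Aqp2 and Cdh16) and none as higher. Of all genes, 3.08% passed it as lower and 4.12% as higher. The targeted genes were not lower on the arrays labelled knockout. Pax8 stood at 10.11, 10.59 and 10.39 on them, against 9.09, 9.0 and 8.89 on the controls, 2.58-fold higher (limma adjusted p = 0.00369). Pax2 stood at 6.11, 6.49 and 6.16, against 6.09, 5.77 and 6.08 (log2 difference 0.27 ± 0.10, SE; adjusted p = 0.189). The sources used here do not say which exons are deleted, and a probe outside the deleted part checks nothing, so the groups are called by their labels throughout. Controls 2 and 6 also carried the highest summed linear signal of adipocyte markers (1521 and 1200), with knockout 3 next at 1011 and control 4 lowest at 483.0. Ucp1, the uncoupling protein of brown fat, stood at 7.77, 3.53 and 7.53 on controls 2, 4 and 6. On knockouts 1, 3 and 5 it stood at 5.12, 4.74 and 3.87.

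S100 proteins pair up into dimers, and calcium opens a groove in which most of them bind partner proteins such as annexins. S100a10 is the exception in that its loops have lost calcium binding, and it keeps the binding-ready shape in a tetramer with annexin A2. The members are grouped here by a source in which each is known, with no claim that it is the main one: epithelial genes (S100a1, S100a10, S100a11, S100a13 and S100a16), stromal genes (S100a4, the fibroblast and motile cell gene, and S100a6, calcyclin), neutrophil genes (S100a8 and S100a9, the subunits of calprotectin) and S100b, the marker of glia that adipocytes express too. In a bulk sample, fewer cells of a type and less RNA per cell cannot be told apart.

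Upstream sequence was matched by symbol in RefSeq's table of assembly GRCm38.p6 for 9 of the 10 members, with 10 windows of 250 bases before a transcription start; S100a10 was not matched. These 2 are shown because S100a11 passed the test and S100a8 stayed under the dim limit on every array. Both lie on the plus strand, S100a11 at chr3:93520246-93520495 and S100a8 at chr3:90668821-90669070. Capitals mark matches to the motifs searched on both strands, which were AP-1 (TGANTCA), TEAD (GGAATG), STAT (TTCNNNGAA), the SP1 GC box (GGGCGG), a core motif of the paired box factors (GCGTGAC) and the TATA box (TATAAA).
S100a11: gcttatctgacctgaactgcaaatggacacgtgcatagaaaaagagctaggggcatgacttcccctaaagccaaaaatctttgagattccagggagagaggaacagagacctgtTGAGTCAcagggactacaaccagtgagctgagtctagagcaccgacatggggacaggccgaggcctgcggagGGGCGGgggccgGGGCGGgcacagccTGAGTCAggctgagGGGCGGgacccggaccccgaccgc
S100a8: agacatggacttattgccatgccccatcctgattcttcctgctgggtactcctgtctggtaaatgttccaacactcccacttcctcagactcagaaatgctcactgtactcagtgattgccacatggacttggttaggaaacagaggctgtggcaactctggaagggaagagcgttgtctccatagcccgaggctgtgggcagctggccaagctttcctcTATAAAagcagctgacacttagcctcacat
The S100a11 window held AP-1 matches starting 136 and 38 bases before the start and GC boxes at 64, 52 and 24 bases, with no TATA box. The S100a8 window held a TATA box at 30 bases and no AP-1 or GC box match. Over the 10 windows, AP-1 matched in 2 (S100a11 and S100a16), against 6.75% of all 32851 windows in the table. GC boxes matched in 3 (S100a9, S100a11 and S100a16; 32.7% of all windows), the TATA box in 2 (S100a4 and S100a8; 12.4%), and TEAD (12.6%), STAT (7.02%) and the paired box motif (1.78%) in 0. These are letter matches in a short window and say nothing of binding. The S100a1 and S100a13 genes start 105 bases apart and point away from each other, so their windows shared the 104 bases between the starts.

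Among the 10 members, 2 epithelial genes rose on the arrays labelled knockout, S100a10 and S100a11, and none fell. The other 3 epithelial genes, both stromal genes, both neutrophil genes and S100b did not pass. The test was limma with sex in the model, with Benjamini-Hochberg adjustment over all 22180 genes, and a gene passed at an adjusted p below 0.05. Of all genes, 4.12% passed as higher and 3.08% as lower. The median log2 difference was 0.16 over the 10 members and -0.0062 over all genes. Of the members, 7 had means above the dim limit; over all genes above it, 6.06% passed as higher. In 3 members (S100a6, S100a10 and S100a11) every array labelled knockout lay above every control, as in 11.7% of all genes, and in 1 (S100a8) below, as in 10.8%; together that is 4 members, beside 22.5% of all genes.

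**Figure D1:**
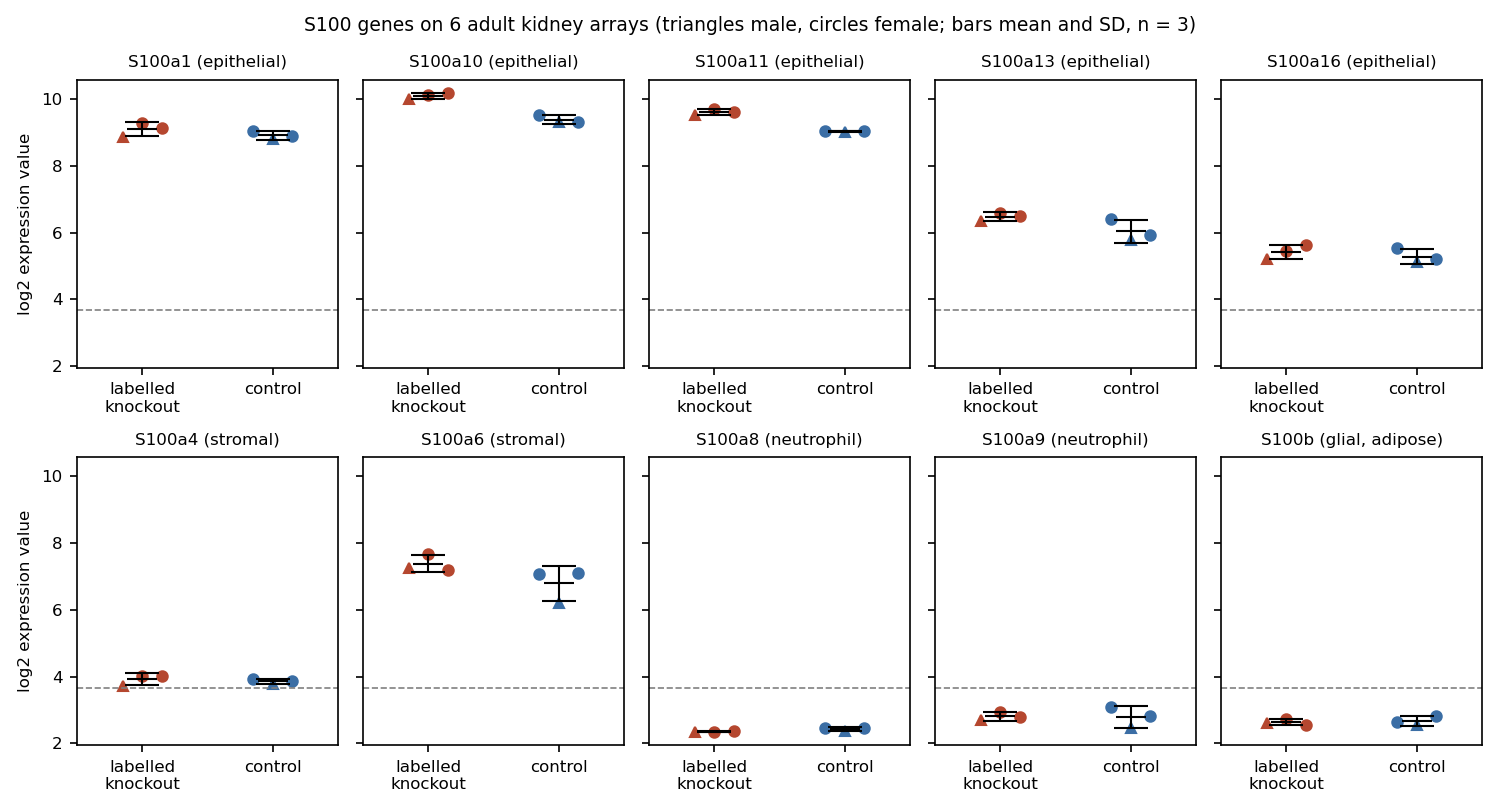
Log2 expression value (y axis) of each of the 10 S100 genes on the 3 arrays labelled knockout (left, red) and the 3 control arrays (right, blue), with group mean and SD (n = 3 each); triangles are males, circles females, and the dashed line is the dim limit of 3.67. S100a10 and S100a11 separate the groups with small spread, and S100a8, S100a9 and S100b lie under the line on all 6 arrays.

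S100a10 (Entrez gene 20194), the light chain of the annexin A2 tetramer and a plasminogen receptor at the cell surface, stood at 9.99, 10.11 and 10.17 on knockouts 1, 3 and 5, against 9.54, 9.33 and 9.30 on controls 2, 4 and 6. All arrays labelled knockout lay above all controls, and the lowest of them exceeded the highest control, control 2. The means were 10.09 ± 0.09 and 9.39 ± 0.13 (SD, n = 3 each). S100a10 was 1.62-fold higher (95% interval 1.40 to 1.89), a log2 difference of 0.70 ± 0.09 (SE; limma adjusted p = 0.0108). The difference was 0.66 between the males and 0.72 between the females. Of all genes, 97.7% had a smaller log2 difference. The call held with any single array left out, the adjusted p reaching 0.0485 without knockout 5. It was lost (adjusted p = 0.0548) when every row of the deposited table was tested, genes or not.

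S100a11 (Entrez gene 20195), calgizzarin, which binds annexin A1 and is found in many epithelia, stood at 9.52, 9.70 and 9.61 on the arrays labelled knockout, against 9.03, 9.02 and 9.04 on the controls. The controls lay within a few hundredths of each other and well under every array labelled knockout. The means were 9.61 ± 0.09 and 9.03 ± 0.0089 (SD, n = 3 each). S100a11 was 1.49-fold higher (95% interval 1.31 to 1.70), a log2 difference of 0.58 ± 0.08 (SE; limma adjusted p = 0.012). Without control 2 the adjusted p was 0.0589 and without control 6 it was 0.059, so 1 member instead of 2 passed there, while the log2 difference was 0.56 and 0.57. With every row of the table tested it was also 0.059. Urothelial markers, of another epithelium that a kidney piece can hold, passed as higher for 2 of 7 measured (Krt7 and Krt20), with a median of 0.096. Over all genes, 4.12% passed as higher. The uroplakin genes Upk1a, Upk1b, Upk2, Upk3a and Upk3b differed by -0.05 to 0.32 and did not pass. The summed linear signal of the list was 543.5 to 669.7 on the arrays labelled knockout and 378.7 to 588.0 on the controls, and the groups overlapped. The part of these markers in the epithelial members' values was not tested. A processed copy, S100a11-ps on chromosome 12, has a transcript cluster of its own, at 7.0 ± 0.07 against 6.61 ± 0.15 (SD, n = 3 each; log2 difference 0.39 ± 0.10, adjusted p = 0.0788). How far probes of the gene and of this copy read each other's RNA was not tested.

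S100a13 (Entrez gene 20196), which takes part in the release of fibroblast growth factor 1 and interleukin 1 alpha without a signal peptide, stood at 6.34, 6.59 and 6.50 on the arrays labelled knockout, against 6.41, 5.77 and 5.92 on the controls. The groups overlapped because control 2 lay above knockout 1. The log2 difference was 0.44 ± 0.14 (SE; 95% interval 0.12 to 0.77) and did not pass (adjusted p = 0.11). Dropping each array in turn, it ran from 0.32 without control 6 (adjusted p = 0.272) to 0.60 without control 2 (adjusted p = 0.0506).

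S100a1 (Entrez gene 20193), best known as a calcium sensor of muscle and also made in kidney tubules, stood at 8.87, 9.27 and 9.14, against 9.05, 8.80 and 8.89 on the controls. Knockout 1, a male, lay below 2 of the controls, so the groups overlapped. The log2 difference of 0.19 ± 0.09 (SE; 95% interval -0.033 to 0.40) did not pass (adjusted p = 0.304), and was 0.12 without control 6. S100a16 (Entrez gene 67860) stood at 5.21, 5.43 and 5.62, against 5.53, 5.12 and 5.19. Its log2 difference was 0.14 ± 0.11 (SE; 95% interval -0.13 to 0.41; adjusted p = 0.54), with control 2 above 2 of the arrays labelled knockout. It was 0.04 without control 6, 0.08 without knockout 5 and 0.23 without control 2. S100a1 and S100a13, which share their start region, thus differed by 0.19 and 0.44, and neither passed.

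S100a6 (Entrez gene 20200), calcyclin, which is made by fibroblasts and by many epithelia and binds the calcyclin-binding protein Cacybp, had the largest spread of the members. It stood at 7.27, 7.67 and 7.20 on the arrays labelled knockout, against 7.06, 6.20 and 7.11 on the controls. The groups did not overlap, but the lowest array labelled knockout was near the 2 female controls, and the male control lay far under them. The log2 difference was 0.59 ± 0.18 (SE; 95% interval 0.15 to 1.02) and did not pass (adjusted p = 0.113). It was 1.06 between the males and 0.35 between the females, and the genotype by sex term was 0.71 ± 0.29 (adjusted p = 0.714). Without control 4 the difference was 0.35 (adjusted p = 0.307), and without knockout 5 it was 0.79 (adjusted p = 0.0512).

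S100a4 (Entrez gene 20198), also called fibroblast-specific protein 1 although leukocytes make it too, lay just over the dim limit on every array. It stood at 3.71, 4.01 and 4.02 on the arrays labelled knockout, against 3.93, 3.78 and 3.87 on the controls. The groups overlapped, with a log2 difference of 0.05 ± 0.08 (SE; 95% interval -0.14 to 0.25; adjusted p = 0.759), which was -0.019 after median centring and 0.02 to 0.12 with single arrays left out. Fibroblast markers moved between the groups: of 12 measured, 7 passed as higher and none as lower, with a median of 0.64. Over all genes, 4.12% passed as higher and 3.08% as lower. Col1a1, a chain of type I collagen, was among the 7 (1.56 ± 0.10, SE). The summed linear signal of the 12 was 2312 to 3103 on the arrays labelled knockout and 1316 to 1900 on the controls. The part of stromal RNA in the S100a6 and S100a10 values was not tested.

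S100a8 and S100a9 (Entrez genes 20201 and 20202), which fill the cytosol of neutrophils and are released as calprotectin, lay under the dim limit on all 6 arrays. S100a8 stood at 2.35, 2.34 and 2.36 on the arrays labelled knockout, against 2.45, 2.37 and 2.47. S100a9 stood at 2.70, 2.95 and 2.79, against 3.09, 2.45 and 2.82. No fold is given for values under the limit; the log2 differences were -0.08 ± 0.07 and 0.03 ± 0.12 (SE), with limma adjusted p-values of 0.604 and 0.931. The S100a8 groups did not overlap, but by less than the spread of the controls.

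Neutrophil markers gave a like picture. Of 18 listed, 17 were measured, 14 had means under the dim limit, and none passed the limma test in either direction. Its unadjusted p was below 0.05 for 2 of the 17, beside 4889 of all 22180 genes. Ly6g, the surface marker of mouse neutrophils, stood at 2.70, 2.62 and 2.57 on the arrays labelled knockout, against 2.36, 2.76 and 2.99. The granule genes Mpo, Elane, Ngp and Camp had means between 2.30 and 3.29. Ltf and Mmp9 had means of 3.69 and 3.76, just over the limit, and did not pass. The summed linear signal of the list was 160.1 to 238.0 on the arrays labelled knockout and 143.8 to 153.3 on the controls. Without Itgam, a sum taken after seeing the data, it was 126.3, 127.8 and 135.6 on the arrays labelled knockout, against 128.4, 121.9 and 135.8 on the controls, and the groups overlapped. Itgam, the integrin that macrophages share with neutrophils, stood at 5.08, 5.35 and 6.68, against 4.38, 4.46 and 4.13 (log2 difference 1.38 ± 0.37, SE; adjusted p = 0.0794). Of 12 macrophage markers, 9 passed as higher and 0 as lower (median 1.19), beside 4.12% and 3.08% of all genes. Cd68 was among the 9 (1.27 ± 0.11, SE). The summed signal of the 12 was 1000.0 to 1692 on the arrays labelled knockout and 554.3 to 615.1 on the controls. The part of these markers in the S100a10 and S100a11 values was not tested.

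**Figure D2:**
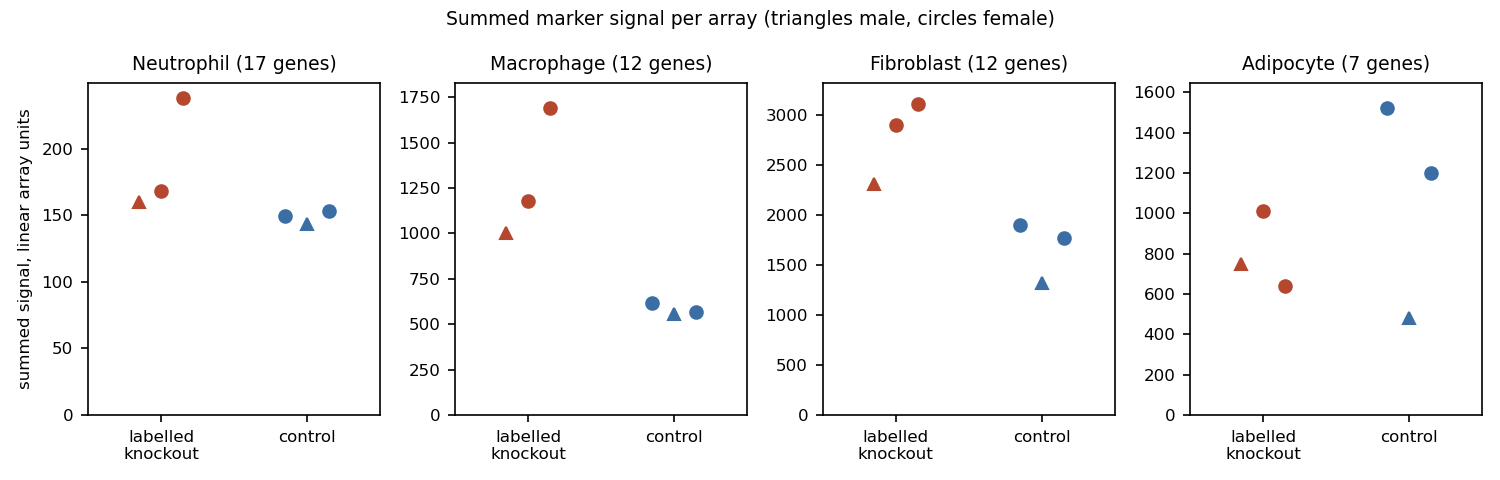
Summed signal in linear array units (y axis, from 0) of the neutrophil, macrophage, fibroblast and adipocyte marker genes on each array, labelled knockout left (red) and control right (blue), triangles male and circles female. Macrophage and fibroblast sums separate the groups, and adipocyte sums are highest on controls 2 and 6. Neutrophil sums, with Itgam counted in, also separate the groups (160.1 against 153.3 at the nearest). Without Itgam, left out after seeing the data, the groups overlapped.

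S100b (Entrez gene 20203), the member outside the cluster, also lay under the dim limit on every array. It stood at 2.62, 2.72 and 2.55 on the arrays labelled knockout, against 2.65, 2.54 and 2.82 on the controls, a log2 difference of -0.04 ± 0.10 (SE; adjusted p = 0.867). Of 8 glia and Schwann cell markers 6 were measured, 4 of them under the limit, and none passed. The unadjusted limma p was below 0.05 for 2 of the 6, beside 4889 of all 22180 genes. The summed adipocyte signal was 747.6, 1011 and 637.3 on the arrays labelled knockout, against 1521, 483.0 and 1200 on the controls. With S100b under the limit everywhere, its order across arrays is not read against that signal.

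All 10 members had a negative coefficient of sex, that is lower values in males, in the same limma fit, as did 54.9% of all genes. None of the 10 passed over all genes, where 1.87% did, and 4 had an unadjusted p below 0.05: S100a1 (-0.25 ± 0.10, SE), S100a4 (-0.22 ± 0.09), S100a6 (-0.53 ± 0.19) and S100a9 (-0.34 ± 0.12), with adjusted p-values of 0.248 to 0.281. S100a10 and S100a11 differed by -0.12 ± 0.10 and -0.08 ± 0.08. The genotype by sex term passed for none of the 10 and had an unadjusted p below 0.05 for 1, S100a6; 0.00451% of all genes passed. How many of all genes fell below the unadjusted threshold was not counted for these terms. With 1 male per group these terms rest on knockout 1 and control 4.

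The family was compared beyond the members through a list of 8 further S100 genes, all measured. Of these, 1 passed as higher and 1 as lower, beside 4.12% and 3.08% of all genes. S100a14, an epithelial gene of the cluster, was the higher one. The lower one was S100g, the vitamin D-dependent calbindin D9k of the distal tubule, which lies on chromosome X. S100a14 stood at 5.18, 5.30 and 5.10 on the arrays labelled knockout, against 4.73, 4.23 and 4.71, and the groups did not overlap. It was 1.56-fold higher (log2 difference 0.64 ± 0.12, SE; limma adjusted p = 0.029), and it kept its call in 1 of 6 fits with an array left out (adjusted p up to 0.0932), losing it too without sex in the model (0.0819). S100g stood at 9.86, 10.09 and 9.67, against 11.56, 11.29 and 11.51. It was 3.0-fold lower (-1.58 ± 0.13, SE; adjusted p = 0.00283) and kept its call in all 6. The other 6, S100a2, S100a3, S100a5, S100a7a, S100a7l2 and S100z, had means under the dim limit, and none passed. The 7 fused-type S100 genes, barrier proteins such as filaggrin (Flg) that carry an S100 domain at one end, did not pass either. Among them 0 had an unadjusted limma p below 0.05, beside 4889 of all 22180 genes.

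**Figure D3:**
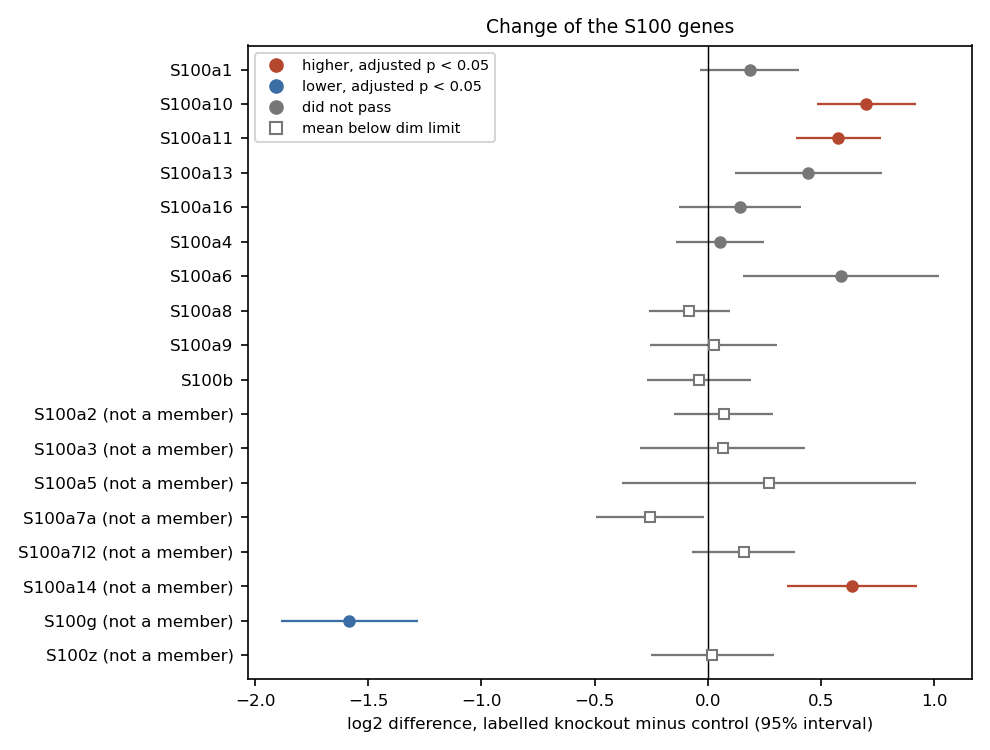
Log2 difference, labelled knockout minus control, with its 95% interval (x axis) for the 10 members and 8 further S100 genes (rows). Red marks genes that passed as higher (S100a10, S100a11 and S100a14), blue the one that passed as lower (S100g at -1.58), grey those that did not pass, and open squares genes with a mean under the dim limit.

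Along chromosome 3, 70 protein-coding genes run from S100a1 to S100a10 in RefSeq order. Most members lie at one end, and S100a11 and S100a10 are next to each other at the far end, past the genes of the epidermal barrier. Of 55 neighbours, the fused-type genes included, 46 were measured, and 36 had means under the dim limit. Of the 46, 1 passed as higher and none as lower, with a median of -0.04. Over all genes, 4.12% passed as higher and 3.08% as lower. An unadjusted limma p below 0.05 was found for 5 of the 46, beside 4889 of all 22180 genes. The gene that passed was Sprr1a, a small proline-rich protein of the cornified envelope, at 9.36, 9.46 and 9.13 on the arrays labelled knockout, against 8.48, 7.49 and 8.60. It was 2.18-fold higher (log2 difference 1.13 ± 0.23, SE; limma adjusted p = 0.0358), and it lost its call in 3 of 6 fits with an array left out (at most 0.104) and without sex in the model (adjusted p = 0.0987). The 4 others with the smallest p, Lce3a (-0.34), Smcp (-0.64), Lce3b (-0.34) and Tdpoz8 (-0.33), were lower and did not pass. Lce3b and Tdpoz8 had means under the dim limit. Tchhl1 and Tchh, which lie next to S100a11, differed by -0.16 and 0.13 and did not pass. Of 12 genes flanking the cluster 11 were measured, and none passed. Among the 11, 2 had an unadjusted limma p below 0.05, beside 4889 of all 22180 genes.

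**Figure D4:**
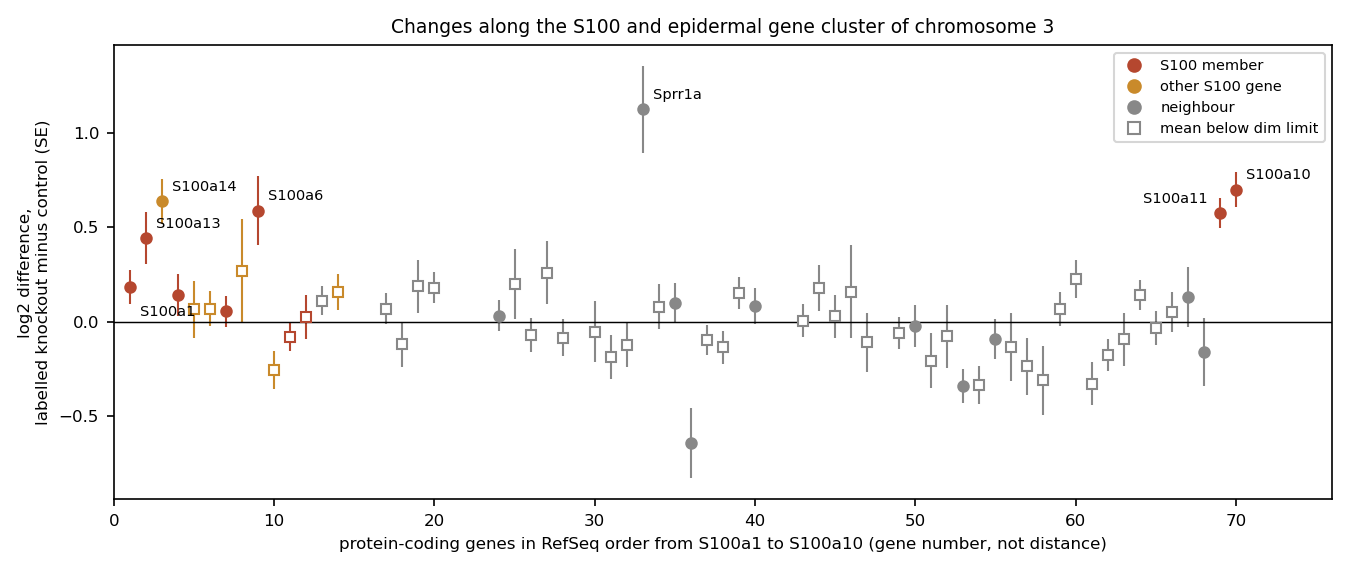
Log2 difference, labelled knockout minus control, with SE (y axis) for the measured protein-coding genes from S100a1 to S100a10 in RefSeq order (x axis, gene number and not distance). Members are red, other S100 genes orange and neighbours grey, with open squares for means under the dim limit; S100a10, S100a11, S100a14 and Sprr1a are the genes that passed, all above 0.

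Genes of proteins that S100 proteins are known to bind were listed from general knowledge. Of 18 intracellular partners 16 were measured, 12 of them with means above the dim limit. Of the 16, 7 passed as higher and 1 as lower, with a median of 0.28. Over all genes, 4.12% passed as higher and 3.08% as lower, and above the dim limit 6.06% as higher. Anxa2, the annexin that S100a10 holds in its tetramer, stood at 7.23, 7.74 and 7.57 on the arrays labelled knockout, against 7.17, 6.56 and 7.07. The groups just failed to overlap, and the difference was 0.58 ± 0.09 (SE; limma adjusted p = 0.0163), beside 0.70 ± 0.09 for S100a10. Ahnak, the giant scaffold protein that the tetramer binds, stood at 7.87, 8.24 and 8.21, against 7.20, 7.06 and 7.31. It was 1.89-fold higher (0.92 ± 0.08, SE; adjusted p = 0.0039), a call that no left-out array removed.

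Anxa1, a partner of S100a11, stood at 7.66, 8.16 and 8.12, against 7.61, 7.16 and 7.49. Its difference was 0.56 ± 0.08 (SE; limma adjusted p = 0.0139), beside 0.58 ± 0.08 for S100a11. The calcium-dependent membrane binders Anxa5 (0.87 ± 0.13) and Anxa6 (0.59 ± 0.10), the myosin heavy chain Myh9 (0.54 ± 0.11), which S100a4 binds, and the epithelial calcium channel Trpv6 (0.65 ± 0.13), which the S100a10 tetramer helps to the membrane, also rose. The related channel Trpv5 had a difference of 0.44 ± 0.15 (adjusted p = 0.135). Leaving out each array in turn, the calls were kept in 1 of 6 fits for Anxa2 (adjusted p up to 0.0727) and Anxa6 (up to 0.0803), 2 for Anxa1 (up to 0.0607) and Trpv6 (up to 0.13), 3 for Anxa5 (up to 0.0594) and 0 for Myh9 (up to 0.113). A model without sex also ended all 6 of these calls, with adjusted p-values of 0.157 for Anxa1, 0.186 for Anxa2, 0.252 for Anxa6, 0.054 for Anxa5, 0.0645 for Myh9 and 0.0577 for Trpv6. The 2 left-out fits that kept Anxa1 and Trpv6, without knockout 1 or control 4, are the same fit of the females alone. That fit also makes up 2 of the 3 for Anxa5. The Anxa6 groups overlapped. Atp2a2, the calcium pump that S100a1 binds in muscle, differed by -0.26 ± 0.08 (adjusted p = 0.108). Fgf1, the growth factor released with S100a13, fell by 0.53 (± 0.10, SE; adjusted p = 0.0328), lost its call in all 6 left-out fits (up to 0.109) and without sex in the model (0.369), and had overlapping groups. Cacybp and Sugt1, partners of S100a6, differed by -0.04 ± 0.09 and 0.02 ± 0.08.

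Of 9 receptors and extracellular partners, all measured, none passed as higher (4.12% of all genes) and 1 as lower (3.08%). That was Plau, the urokinase plasminogen activator, whose substrate plasminogen S100a10 can hold at the cell surface. Plau stood at 10.73, 10.08 and 10.39 on the arrays labelled knockout, against 11.09, 11.17 and 11.18. It was 1.68-fold lower (-0.75 ± 0.13, SE; limma adjusted p = 0.0245), and it kept its call in 2 of 6 fits with an array left out (adjusted p up to 0.0994), with 0.0674 without sex in the model. Those 2 fits, without knockout 1 or control 4, are the same fit of the females alone. Plat, the tissue plasminogen activator, differed by -0.35 ± 0.11 (adjusted p = 0.105). The calprotectin receptors Tlr4 (0.37 ± 0.12, adjusted p = 0.131) and Ager (0.28 ± 0.09, adjusted p = 0.132) and the basigin gene Bsg (0.02 ± 0.08, adjusted p = 0.933) did not pass.

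**Figure D5:**
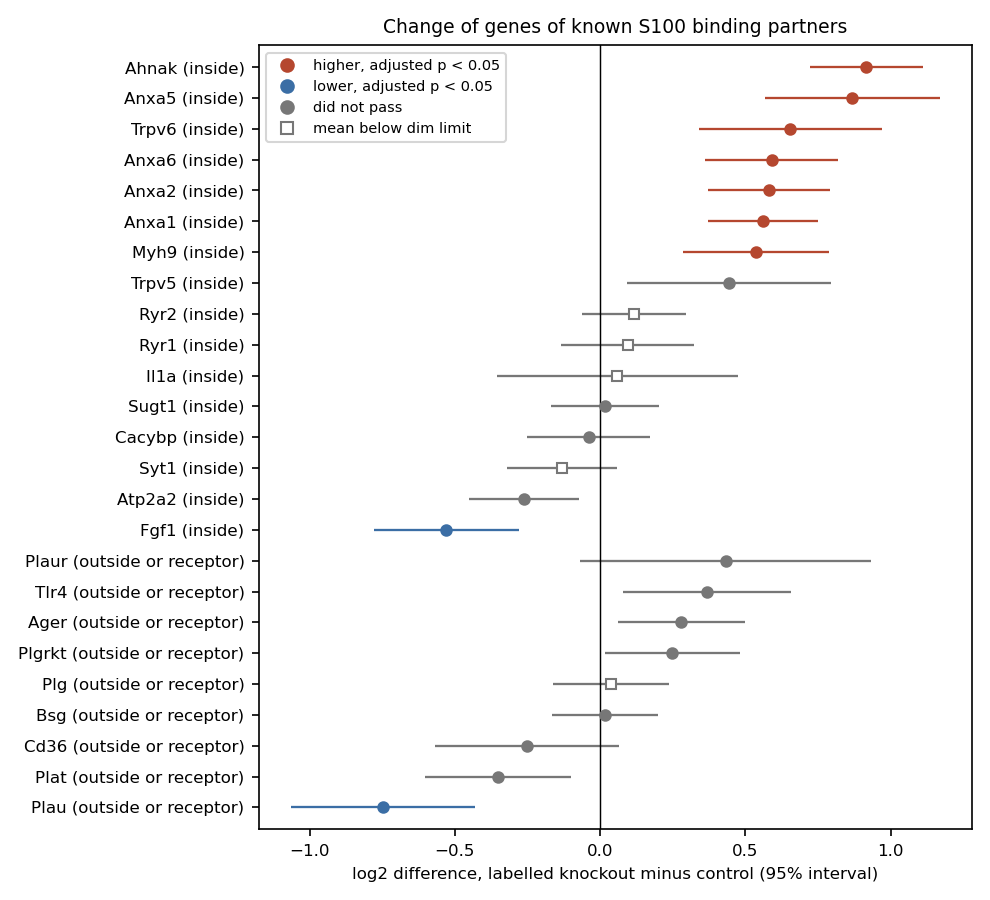
Log2 difference, labelled knockout minus control, with its 95% interval (x axis) for 16 measured intracellular partners (upper rows) and 9 receptors and extracellular partners (lower rows) of S100 proteins. Ahnak (0.92) and Anxa5 (0.87) lie farthest right among those that passed as higher (red), and Fgf1 and Plau passed as lower (blue).

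For the member with the smallest p of each class, the most similar profiles over the 6 arrays were sought among 13660 genes above the dim limit, by the root mean square difference of the centred log2 values. For S100a10, whose own values deviated by 0.36 from their mean on this measure, these were Ctnnd2 (0.05), the calponin gene Cnn2 (0.07) and Nid1, a basement membrane linker (0.07). For S100a6, with a deviation of 0.44, they were Slfn3 (0.12), Bmp3 (0.14) and Pdlim7 (0.14). S100a8 and S100b lay under the dim limit with deviations of 0.05 and 0.10, so nothing is read from the genes nearest to them, which were Ezh1, Tmem185a and Parp1 for S100a8, and Dmac2l, Banf1 and Ftsj1 for S100b.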

How the data were processed

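The authors deposited log2 expression values per transcript cluster for 6 arrays, which were used as given. RMA, limma and R 3.4.0 are named, with no role, in the submitters' processing notes; the sources used here give no filter and no genome build. The values ran from 0.955 to 12.9, with nearly equal medians. Labelled cDNA was made from 400 ng RNA, per the labels' protocols.

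Of 41345 clusters, 23521 had 1 gene symbol in the platform annotation, 1814 several and 16010 none; clusters with several or none were not used in the gene-level fit. Gene identifiers matched RefSeq (GRCm38.p6) for 23328. Of 1082 genes with several clusters the one with the highest mean was kept, which left 22180 genes. RefSeq gene positions served only for gene order and chromosome.

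Differences were fitted with limma 3.58.1 (R 4.3.3) on genotype and sex, with 3 residual degrees of freedom; each log2 difference is labelled knockout minus control, adjusted for sex, with its moderated SE. Intervals are 95%. Sex and genotype by sex terms came from limma too, genotype by sex with 2 residual degrees of freedom. By an exact two-sided permutation test S100a6, S100a8, S100a10 and S100a11 each had p = 0.1, the smallest that 3 against 3 arrays allow. No set test was run. The members and lists were chosen with earlier results of these data known. The text names all members and, of the S100, partner, receptor and neighbour lists, the genes that passed and up to 4 others by smallest p. Bsg, Cacybp, Sugt1, Flg, Tchh, Tchhl1, S100a11-ps, S100a3 and S100z, and the single genes named of the cell type marker lists, fall outside that rule and were named after their values were seen. Alternatives were a model without sex, females only, single arrays left out, array weights, a robust prior with a trend, median centring or quantiles as another scaling, averaged clusters, dim genes left out and every row tested; for genes outside the members they were chosen after seeing the data. In 20 simulations with this design over 22180 genes, 200 genes were changed, and noise was independent between genes with variances drawn from limma's fitted model. Of genes changed by 0.5 log2, 15.8% were recovered, 88.7% at 1 and 99.2% at 2, with 4.82% of calls false. These shares hold for that model and that number of changed genes. In the data 1596 genes passed, so the shares may differ here. The number of arrays limits the precision.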

Additional observations from a re-analysis of the deposited data

Results flagged for a closer look

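The S100a4 difference between labelled knockout and control was -0.07 log2 in the males and 0.12 in the females, a gap of -0.18 between the sexes. It was singled out because the labelled knockout male lay below the control male while both labelled knockout females lay above both control females. In the limma genotype by sex term the gap was -0.18 ± 0.17 (SE; adjusted p = 0.889). The gene lay close to the dim limit of 3.67 on every array.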

How the results depend on the processing

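No paired analysis was possible because the groups share no replicate number. Of the 10 members, 2 passed as higher in 12 of 15 alternatives, and 0 passed as lower in any. With every row of the table tested 0 passed as higher (adjusted p = 0.0548 for S100a10 and 0.059 for S100a11), where more features share the adjustment. With single arrays left out, 1 to 2 members passed, 1 without control 2 or control 6. The number of all genes that passed was 471 without sex in the model, 302 of all rows tested, and 344 to 1249 with single arrays left out, against 1596; it was within 1.5 times of that in the other alternatives. Leaving out knockout 1 or control 4 gives the fit of the females alone, since the remaining male is fitted by the sex term. These 2 fits are thus 1 and the same in every count out of 6. In every count out of 15, the females only alternative is that same fit again. The log2 difference of S100a10 ranged from 0.63 to 0.76 and that of S100a11 from 0.50 to 0.62 over all 15.

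Signs turned only where no test was passed. S100a4 was -0.019 after median centring, which shifts the median of all genes by -0.074. S100a9 was -0.083 in the females alone, -0.013 with array weights, -0.048 after median centring and -0.083 to 0.13 with single arrays left out. S100b was -0.099 to 0.0299 with single arrays left out, and the sex difference of S100a8 was 0.0088 after median centring. S100a8, S100a9 and S100b have no value with dim genes removed. Their levels stayed under the dim limit on all arrays of both groups. None rose over it on an array labelled knockout, and changes under it are not read here.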
